A study of Mus musculus with 3 samples.

Results

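The E2f genes encode the E2F transcription factors, which bind promoters of cell cycle genes and are held in check by the retinoblastoma family of pocket proteins. Cyclin-dependent kinases 4 and 6 phosphorylate the pocket proteins and so release E2F at the passage from G1 into S phase. E2f1, E2f2 and E2f3 are known as activators, E2f4 and E2f5 act mainly as repressors together with pocket proteins, E2f6 represses without them as part of a Polycomb complex, and E2f7 and E2f8 are atypical repressors that bind DNA without a dimerisation partner. All 8 genes, E2f1 to E2f8, were taken by name from 22028 annotated protein-coding genes. Open chromatin at each was every ATAC-seq peak that touched the gene body or the 10 kb on either side of it.

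ATAC-seq marks accessible DNA by the insertions of a transposase. It had been done on 4 mouse pre/pro-B-cell lines in culture, transformed by a retrovirus carrying BCR-ABL p185 and derived from bone marrow of C57BL/6 mice. All 4 lines thus share the oncogene. Both Cdk6+/+ lines (WT) carried wildtype Cdk6, and both Cdk6KM/KM lines (K43M) carried on both copies of the gene the K43M allele, whose product lacks kinase activity. Each list of peaks came from 1 line. WT replicate 2, K43M replicate 1 and K43M replicate 2 are labelled samples. The other list, called WT unnumbered, was placed with the wildtype lines by the series' design text. According to that text, data of 1 WT line came from a previous submission and were processed anew. WT unnumbered was taken to be that line, so the WT lists may differ in batch. Whether this affected the differences between genotypes was not tested. Values are given for WT unnumbered before WT replicate 2, and for K43M replicate 1 before K43M replicate 2. With 2 lines per genotype, the spread between lines that a difference between genotypes is set against rests on few lines.

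The lists held between 33038 and 39038 peaks. The deposited fold enrichment of a peak is the number of read ends, each extended to 200 bp, stacked at its summit (the pileup) over a local background, each with 1 added. The background counts the read ends in the 10 kb around the summit, the peak included, and a wide strong peak therefore raises its own background. Both counts could be recovered for 100% of the peaks. The genome-wide background, which follows the depth of the library, lay between 48.4 and 65.3 read ends per 10 kb, and the smallest pileup of a peak was 6 or 7. Of 9 B-lineage marker genes, 6 had a promoter peak in all 4 lists, and Cd79b, Rag1 and Rag2 had one in 3 lists. None of 4 T-lineage, 4 myeloid and erythroid and 3 other tissue markers had a promoter peak in any list.

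Stretches of promoter sequence are shown first because most E2f promoters were open and because E2F proteins are known to act on E2f genes. Capitals mark matches to the E2F motif (TTTCCCGC, TTTGGCGC, TTTCGCGC or TTTGCCGC), SP1 (GGGGCGGGG) or the NRF-1 core (CGCATGCG), on either strand. An SP1 match can overlap another SP1 match in runs of G, and none of those shown do. The stretches were read 5′ to 3′ on the strand of the gene from the GRCm38 sequence of RefSeq (mm10 coordinates).
E2f1 at its start, E2F pair (chr2:154569864-154569892, minus strand): tttcGCGGCAAAaaggaTTTGGCGCgtaa
E2f1 upstream, 3 SP1 (chr2:154569996-154570137, minus strand): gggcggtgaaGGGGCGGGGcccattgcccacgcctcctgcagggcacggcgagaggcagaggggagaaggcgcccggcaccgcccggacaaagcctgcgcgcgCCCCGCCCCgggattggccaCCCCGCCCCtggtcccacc
E2f2 before its start, E2F (chr4:136172302-136172331, plus strand): gcggcatatagTTTGGCGCtaaaaaaaaaa
E2f3 before the first start, E2F (chr13:29986064-29986084, minus strand): tgaaaagccgGCGGGAAAtct
E2f6 at its start, NRF-1 (chr12:16810951-16810980, plus strand): cgggtgcactgCGCATGCGgaaagatggcc
E2f7 upstream, SP1, E2F, SP1 (chr10:110745194-110745380, plus strand): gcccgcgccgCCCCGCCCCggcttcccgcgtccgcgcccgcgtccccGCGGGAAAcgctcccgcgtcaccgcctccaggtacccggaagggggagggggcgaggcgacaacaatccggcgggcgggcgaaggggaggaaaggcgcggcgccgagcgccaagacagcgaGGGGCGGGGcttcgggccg
E2f8 past the first start, E2F (chr7:48881322-48881351, minus strand): gaaggcggccgTTTCCCGCctcccgccccg

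Merging overlapping peaks of the 4 lists gave 30 regions at the E2f genes, of 50965 regions in the genome. They comprised 11 promoter regions (2000 bp before to 200 bp after an annotated start of the gene), 4 internal regions and 15 regions in the flanks. Of the flank regions, 6 lay in the promoter window of another gene. A peak was present in all 4 lists in 14 of the 30 regions, against 41.2% of all regions in the genome. A peak in both K43M lists and in neither WT list was found in 2 of the 30, against 7.64% of all regions, and the reverse pattern in 0 of the 30, against 4.51%. A further 8 regions were seen in a single list, against 28.7% of all regions, and 6 in 2 or 3 lists without following the genotype. Per list, between 20 and 22 of the regions had a peak.

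**Figure D1:**
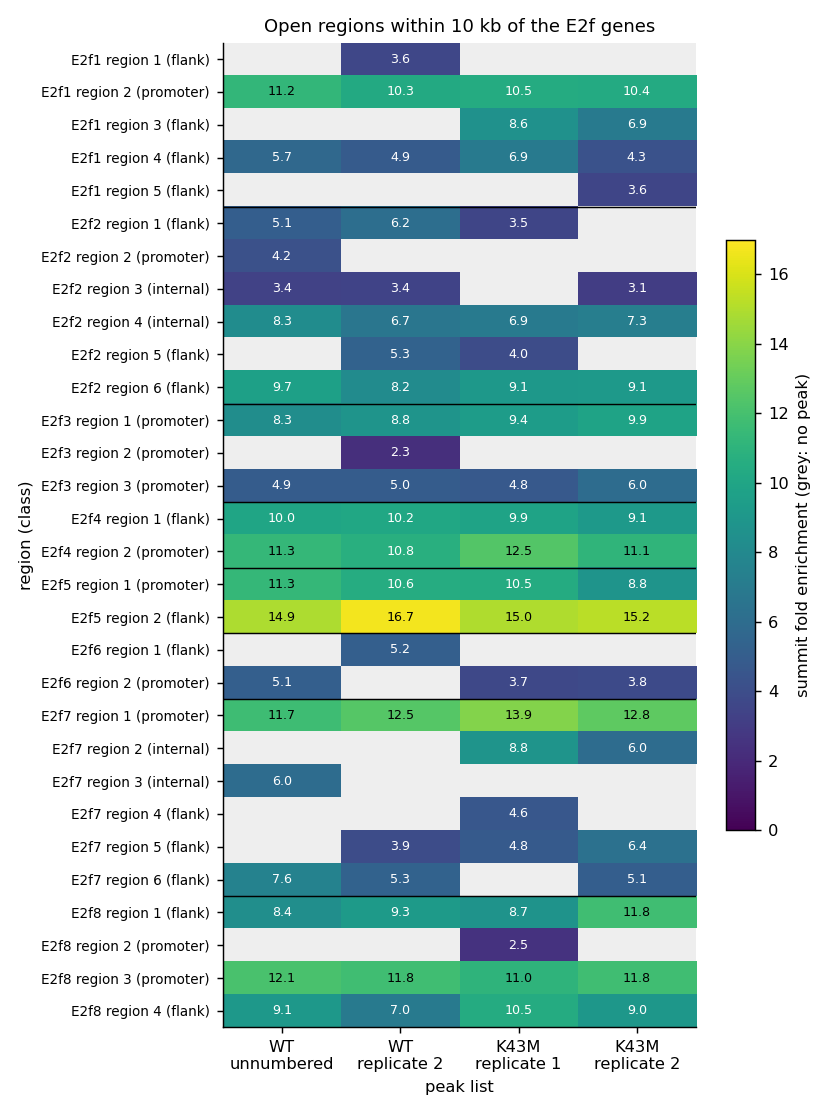
Summit fold enrichment (colour and printed value) of the 30 open regions within 10 kb of an E2f gene in the 4 peak lists, with grey where a list held no peak. Rows are numbered from the 5′ side of each gene. The 14 complete rows include a promoter of E2f1, E2f3, E2f4, E2f5, E2f7 and E2f8. E2f7 region 2 and E2f1 region 3 have values in both K43M lists and in no WT list. A further 8 rows have a value in a single list, some in a WT list and some in a K43M list.

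A promoter peak was present in all 4 lists for 6 of the 8 genes, against 47.5% of all protein-coding genes. These were E2f1, E2f3, E2f4, E2f5, E2f7 and E2f8. The exceptions were the activator E2f2 and the repressor E2f6. Whether these genes were transcribed was not measured here.

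E2f1, the best known activator, had the highest summit pileups among the E2f promoters in 3 of the 4 lists. The promoter region (chr2:154568996-154570469) had its summit at −117 bp from the start of the gene (ENSMUSG00000027490.17, minus strand) and on an SP1 match of the upstream stretch shown above. Fold enrichment was 11.2 and 10.3 in the WT lists and 10.5 and 10.4 in the K43M lists. The K43M values lay between the WT values. The pileups were 123 and 110 in WT and 108 and 104 in K43M, over 502, 489, 471 and 455 background read ends per 10 kb. The peaks were between 1263 and 1458 bp wide, at or above percentile 97.9 of their lists by −log10 q.

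E2f2, the second activator, had no promoter peak shared by all lists. Of its 6 regions, 1 was a promoter region, 2 were internal and 3 lay in the flanks, and 1 internal and 1 flank region were shared by all lists. Its promoter window held a peak in WT unnumbered only (chr4:136172068-136172267), with a fold enrichment of 4.20 and a pileup of 18 (exact Poisson 95% interval 10.7 to 28.4, counting error only). At that background the other lists could have called a pileup of 11 or 12. The E2F match shown for E2f2 lies in the RefSeq promoter, just past this peak and before the GENCODE start. A weak region in the 5′ untranslated part of the first exon, 324 bp past the start, had fold enrichments of 3.38, 3.44 and 3.07 in WT unnumbered, WT replicate 2 and K43M replicate 2. It had no peak in K43M replicate 1.

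The shared internal region of E2f2 was intronic (chr4:136177154-136178442). Its summit lay 5455 bp into the gene and at −2934 bp from the other annotated start, outside the promoter window of either. Fold enrichment was 8.28 and 6.67 in the WT lists and 6.94 and 7.30 in the K43M lists. Here too the K43M values lay within the range of the WT values. The shared flank region (chr4:136205920-136206906), past the end of E2f2 and in the promoter window of Asap3, had higher fold enrichments, of 9.68, 8.19, 9.06 and 9.11, and lower pileups. The pileups were 42, 38, 45 and 36 there, against 73, 55, 68 and 52 in the intron.

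E2f3, the third activator, is transcribed from separate upstream and downstream starts, which give the E2f3a and E2f3b proteins. Both had a peak in every list. Apart from a weak peak between them, no open region lay elsewhere in the 79489 bp of the gene or in its flanks. At the upstream start (chr13:29985918-29986650), fold enrichment was 8.31 and 8.80 in the WT lists and 9.38 and 9.87 in the K43M lists. Both K43M values exceeded both WT values there, for which an exact permutation test gave a two-sided p of 0.333. How many of all regions with a peak in every list separated so was not counted, here or for the genes below. At the downstream start (chr13:29984202-29985104) it was 4.92, 4.97, 4.75 and 6.01, and the groups overlapped. The WT unnumbered value there belongs to another summit, at 29984928, while the summits of the other lists lay between 29984377 and 29984396. WT replicate 2 had a separate peak near that position (summit 29984942), with a fold enrichment of 3.58. The downstream region had a lower value than the upstream one in every list. The weak peak between them, in coding sequence, was present in WT replicate 2 only, with a fold enrichment of 2.28.

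The counts behind these E2f3 ratios were lower in both K43M lists than in both WT lists. At the upstream start the pileup was 106 and 99 in the WT lists and 60 and 58 in the K43M lists. The local background was 594, 518, 275 and 249 read ends per 10 kb. At the downstream start the pileups were 63, 56, 30 and 36, over backgrounds of 600, 524, 276 and 258. The pileup of 63, in WT unnumbered, is that of its other summit. Neither measure overlapped between genotypes at either start. Set against the median of the autosomes in each list, the background in K43M was 0.516 times that in WT at the upstream and 0.521 times at the downstream start, and the pileup was 0.629 and 0.604 times. An exact permutation test of each of these values gave a two-sided p of 0.333, the smallest that 2 lists against 2 allow. The 10 kb windows around the upstream and downstream starts overlap, so their backgrounds are nearly the same measurement.

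The regions around E2f3 moved the same way. Among 50 other regions shared by all lists within 5 Mb of the gene, the median background stood at −0.22 and −0.30 in the WT lists and at −1.34 and −1.30 in the K43M lists (log2 over the autosome median). Around the other 7 genes, the K43M mean minus the WT mean of this quantity ran from −0.18 at E2f5 to 0.20 at E2f2, against −1.06 at E2f3. Relative to these neighbours, the pileup at the upstream start of E2f3 was 1.58 and 1.68 in the WT lists and 1.74 and 1.90 in the K43M lists on the log2 scale. Both K43M values were higher there, and how many shared regions separated so was not counted. At the downstream start the same quantity was 0.83 and 0.85 in the WT lists and 0.74 and 1.22 in the K43M lists, and the groups overlapped. In bins of 5 Mb with 20 or more shared regions, the K43M background was lower by at least 0.5 (log2) in 13 of 369 autosomal bins, and 7 of the 13 were among the 21 bins of chromosome 13. Such bins were not particular to that chromosome. The difference was −0.59 in the bin from 50 Mb of chromosome 18 and −0.61 in the bin from 75 Mb of chromosome 12. Over the shared regions, the median log2 difference in pileup was −0.30 on chromosome 13 and −0.36 on chromosome 18. Why this stretch had fewer reads in the K43M lists was not tested.

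**Figure D2:**
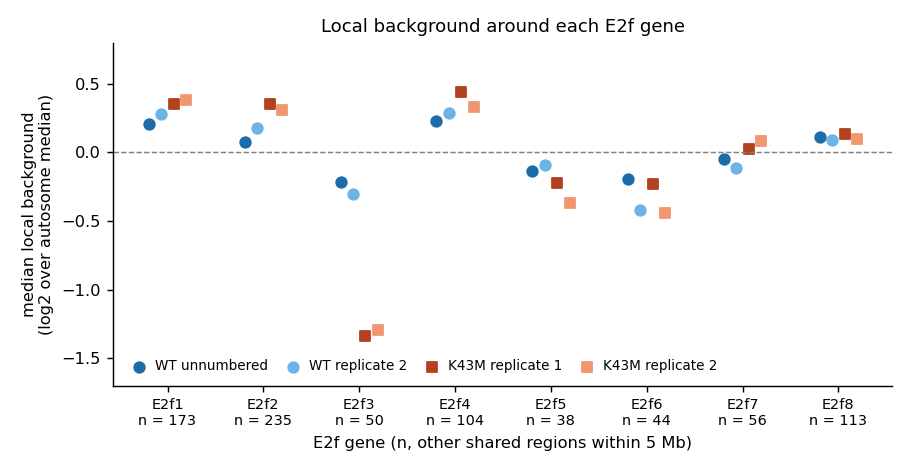
Median local background (log2 over the autosome median of the list, vertical axis) of the shared regions within 5 Mb of each E2f gene (horizontal axis, with the number of regions), for the 4 peak lists. Around E2f3 the K43M lists sit at −1.34 and −1.30, below the WT lists at −0.22 and −0.30.

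**Figure D3:**
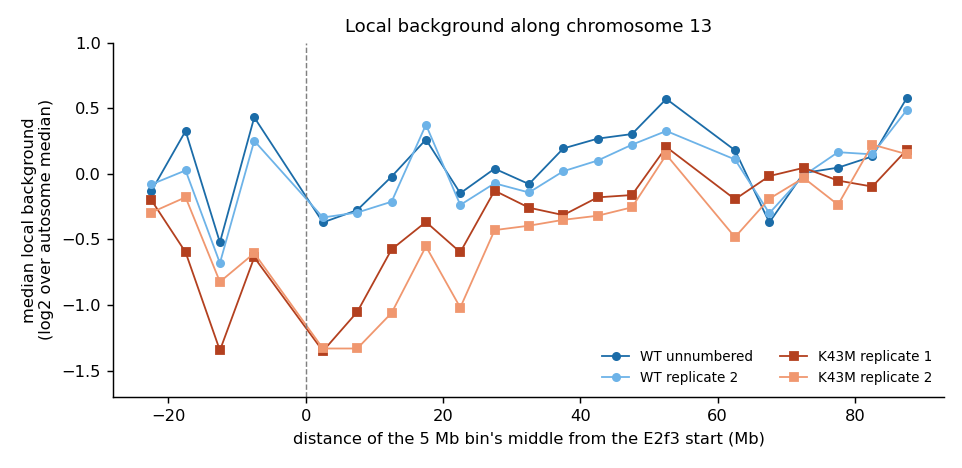
Median local background (log2 over the autosome median) in 5 Mb bins of chromosome 13 with 20 or more shared regions, by the distance of the bin's middle from the E2f3 start in Mb, for the 4 peak lists. In the bin from 30 to 35 Mb, next to E2f3 on its upstream side, the K43M medians are −1.35 and −1.33 and the WT medians −0.37 and −0.33. The bin that holds E2f3 had 14 shared regions and is not plotted.

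E2f4 and E2f5, the repressors that work with pocket proteins, were open at their starts in all 4 lists. The E2f4 region (chr8:105297249-105298206) covers the start of E2f4 and the promoter window of Exoc3l. Its fold enrichment was 11.3 and 10.8 in the WT lists and 12.5 and 11.1 in the K43M lists. E2f5 (chr3:14578413-14579264) had 11.3, 10.6, 10.5 and 8.82. Its lowest value, in K43M replicate 2, went with a pileup of 38, against 74, 64 and 66 in the other lists. The groups overlapped for E2f4, while both K43M values of E2f5 lay below both WT values, K43M replicate 1 by less than 0.1. For E2f5 too, the share of all shared regions that separated so was not counted.

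E2f6, the Polycomb-linked repressor, had only a weak promoter peak. The region (chr12:16810892-16811350) had a fold enrichment of 5.13 in WT unnumbered, 3.70 and 3.85 in the K43M lists, and no peak in WT replicate 2. The pileups were 11, 7 and 7, near the smallest pileup that any list called. WT replicate 2 could have called 6 or 7 there. The summit lay in coding sequence, 103 bp past the nearest of the 7 annotated starts, and the NRF-1 core shown above stands upstream of it. The other E2f6 region was a flank peak in WT replicate 2 only.

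E2f7 and E2f8, the atypical repressors, had the highest fold enrichment on average among the promoter regions shared by all lists. E2f7 (chr10:110744837-110746018) had 11.7 and 12.5 in the WT lists and 13.9 and 12.8 in the K43M lists. Both K43M values exceeded both WT values, and the share of all shared regions that separated so was not counted. E2f8 (chr7:48880583-48881833, also the promoter window of Gm2788) had 12.1 and 11.8 in the WT lists and 11.04 and 11.8 in the K43M lists, and the groups overlapped. A weak peak further upstream of E2f8 appeared in K43M replicate 1 only, with a fold enrichment of 2.51.

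Over the 4 lists, the fold enrichment of the shared promoter regions averaged 12.7 ± 0.898 (SD) at E2f7, 11.7 ± 0.468 at E2f8, 11.4 ± 0.733 at E2f4, 10.6 ± 0.429 at E2f1, 10.3 ± 1.05 at E2f5, 9.09 ± 0.679 at the upstream and 5.16 ± 0.570 at the downstream start of E2f3. Neighbours in this order overlapped in their ranges, except for the starts of E2f3. E2f7 and E2f1 did not overlap. Among genes with a promoter peak in the same list, E2f7 stood between percentiles 74.6 and 92.0 by its best promoter value, and E2f3 between 31.7 and 54.6. Where E2f2 and E2f6 had a promoter peak, they stood at or below percentile 5.88.

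**Figure D4:**
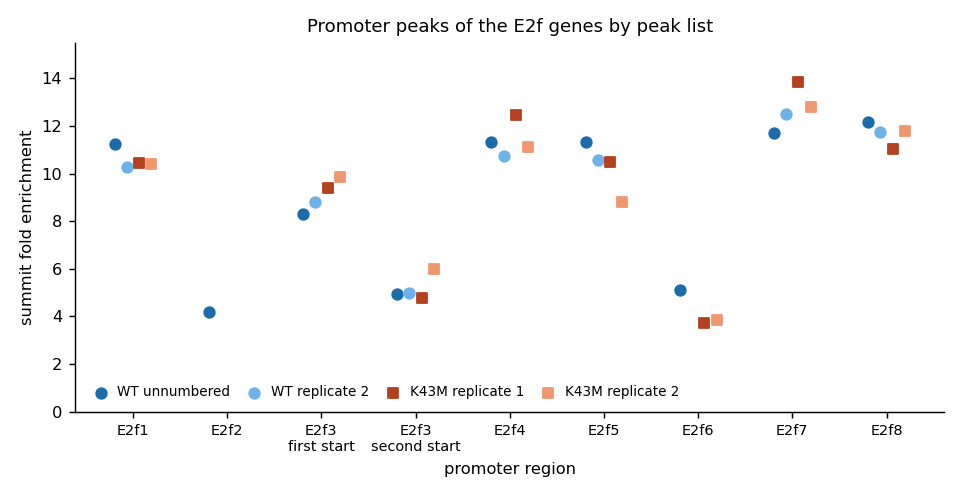
Summit fold enrichment (vertical axis) of the 7 promoter regions of E2f genes found in every list and of those of E2f2 and E2f6, with circles for WT and squares for K43M and no symbol where a list held no peak. The plotted regions of E2f7 and E2f8 lie between 11.04 and 13.9, E2f2 has a symbol for WT unnumbered only, and the single-list peaks of E2f3 (2.28) and E2f8 (2.51) are not plotted.

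Of the 2 strictly K43M-only regions, 1 lay in E2f7 (chr10:110756317-110756623). It is in the last exon of a short E2f7 transcript, in its untranslated part, 11020 bp past the first start. Its fold enrichment was 8.79 and 6.0 in the K43M lists. The pileups were 28 (exact Poisson 95% interval 18.6 to 40.5) and 14 (7.65 to 23.5). At the backgrounds seen there, the WT lists could have called pileups of 7 to 9. The region stood at percentiles 64.7 and 32.2 of its lists. The other internal region of E2f7 (chr10:110760653-110760908) had a peak in WT unnumbered only, with a fold enrichment of 6.0 and a pileup of 17. At that background the other lists could have called a pileup of 8.

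The other K43M-only region lay 536 bp past the end of E2f1, in the promoter window of Necab3 (chr2:154558683-154559097). Its fold enrichment was 8.61 and 6.94 in the K43M lists, with pileups of 30 (20.2 to 42.8) and 19 (11.4 to 29.7). The WT lists could have called 8 to 10 there. Neither region has a value in the WT lists, so no fold change between genotypes is given. At 2 of 30 regions the count was near the genome's 7.64%.

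Of the 6 flank regions present in all 4 lists, 4 lay at promoters of neighbouring genes. The highest fold enrichment at any E2f gene was in such a region, 5049 bp past the end of E2f5 at the promoter of 1810022K09Rik, with 14.9 and 16.7 in the WT lists and 14.98 and 15.2 in the K43M lists. Others lay at the promoters of Actl10 near E2f1, of Asap3 near E2f2, and of 4931428F04Rik and Gm20163 near E2f4. E2f8 was the exception, with shared flank regions on both sides that lie in no promoter window. The upstream one, at −6516 bp from the first start (chr7:48887767-48889114), had 8.43, 9.28, 8.73 and 11.8, and pileups of 28, 35, 47 and 50. The downstream one, 1132 bp past the gene (chr7:48864760-48865500), had 9.09, 7.03, 10.5 and 9.02. The pileups upstream of E2f8 were higher in both K43M lists, while the fold enrichments overlapped. How many shared regions had pileups that separated so was not counted.

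The shared regions were compared between genotypes by 1 limma fit of log2 fold enrichment to every region found in each list, 21012 in all. No region was called (0 of 21012, 0%, at an adjusted p under 0.05), while 2610 (12.4%) had an unadjusted p under 0.05. None of the 14 regions at the E2f genes was called, and 0 of them had an unadjusted p under 0.05. Their adjusted p-values ran from 0.571 to 0.966. The largest difference, K43M minus WT, was 0.28 (95% interval −0.11 to 0.68) on the log2 scale downstream of E2f8. It was 0.10 without WT replicate 2 and 0.47 (0.011 to 0.92, adjusted p = 0.450) without WT unnumbered.

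At the promoters, the limma differences (K43M minus WT, log2 fold enrichment) were −0.042 (95% interval −0.38 to 0.30) at E2f1 and 0.17 (−0.18 to 0.52) and 0.11 (−0.30 to 0.53) at the upstream and downstream starts of E2f3. At E2f4 the difference was 0.095 (−0.24 to 0.43), at E2f5 −0.18 (−0.53 to 0.16), at E2f7 0.14 (−0.19 to 0.48) and at E2f8 −0.064 (−0.42 to 0.29). Each interval includes 0. The median over the 14 regions was 0.035, and over all tested regions 0.0015.

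A limma fit of the recovered pileup in place of the ratio called 210 of the 21012 regions (0.999%), and none of the 14. The direction at E2f3 turned, to −0.68 (95% interval −1.12 to −0.24, adjusted p = 0.122) at the upstream and −0.73 (−1.27 to −0.19, adjusted p = 0.163) at the downstream start. Upstream of E2f8 it was 0.72 (0.15 to 1.28, adjusted p = 0.187). The pileup, unlike the ratio, is not corrected for the local background.

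**Figure D5:**
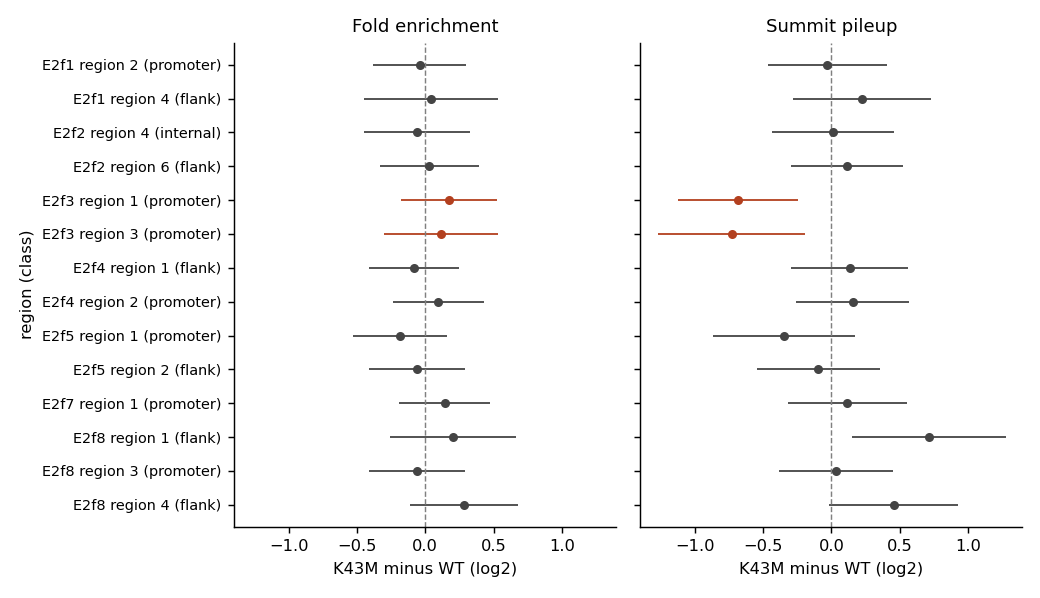
K43M minus WT (log2, horizontal axis) at the 14 E2f regions found in every list, by fold enrichment (left) and summit pileup (right), with 95% intervals of the limma fit and E2f3 in red. All intervals on the left include 0, and on the right those of E2f3 lie below 0 and that of E2f8 region 1 above it.

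Motif letters were then counted around the summits of the 7 promoter regions shared by all lists. Within 100 bp of the summit, the E2F motif was in 0 of 7, against 2.84% of 10134 shared promoter regions in the genome. SP1 was in 2 of 7 (E2f1 and E2f7, background 20%), NFY (CCAATCA or CCAATGA) in 1 (E2f8, 14.7%), and ETS (CCGGAAGT, 8.11%) and the NRF-1 core (3.40%) in 0. Within 200 bp, the E2F motif was in 4 of 7, against 5.68%. The matches lay 125 and 138 bp downstream of the summit at E2f1, 145 bp downstream at the upstream start of E2f3, and at −168 and −120 bp, upstream of the summits, at E2f7 and E2f8. The E2f8 match shown above is another one, at −249 bp from the summit, inside the gene and at −295 bp from an internal start. In the RefSeq promoter windows (250 bp before to 50 bp after a start), which were found for 6 of the 8 genes, the E2F motif was present at E2f2, E2f3 and E2f7, against 2.26% of 32851 windows. E2f1 was not among these, although its E2F pair lies 8 and 21 bp past the GENCODE start. Nor was SP1 found in a RefSeq window of E2f1, although its matches lie at −118, −138 and −231 bp from that start. The reason was not tested. E2F letters were thus present both at E2f promoters open in every list and at E2f2, which was not. E2f4 and E2f5 are not among the RefSeq windows.

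The partners and targets of the E2F proteins nearly all had an open promoter. A promoter peak in all 4 lists was found for 2 of 2 dimerisation partners, 3 of 3 pocket proteins, 6 of 6 genes of the MuvB complex and B-Myb, and 4 of 4 partners of E2f6 in its Polycomb complex. Among E2F target genes of DNA replication and the cell cycle it was found for 19 of 20. The share among all protein-coding genes was 47.5%. The exception, Tk1, which makes thymidine kinase, had fold enrichments of 5.56, 6.78 and 6.19 in the other lists and no promoter peak in K43M replicate 2. The merged region over the Tk1 promoter still held a peak in all 4 lists, which in K43M replicate 2 lay outside the promoter window. Its limma difference, K43M minus WT, was −0.18 (95% interval −0.59 to 0.22). No promoter region of these genes was called by the limma fit.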

How the data were processed

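Peak lists of 4 ATAC-seq libraries were used. Per the methods and labels, the authors trimmed reads (Trimmomatic 0.36), mapped them to mm10 (BWA 0.7.15), removed blacklisted regions (bedtools) and multiply mapped and low-quality reads (SAMtools 1.3.1) and called peaks per library with MACS2 2.1.0; no control is named. The deposited fold enrichment (a ratio) and the deposited −log10 p and −log10 q belong to single lists. Pileup and background were recovered here from fold enrichment and −log10 p under MACS2's Poisson model, and read totals are unknown.

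Peaks of the lists were merged (1 bp minimum overlap). Annotation was GENCODE mouse release 21. limma 3.58.1 (R 4.3.3) was fitted to log2 fold enrichment, centred on each list's median, with Benjamini-Hochberg adjustment. Replicate numbers pair nothing, and p-values measure the spread between lines. Motifs and sequences came from GRCm38 through pysam 0.24.0, and some stretches are not reported here. Code was tested on simulated data. Named were the 8 E2f genes, neighbours with a promoter region within 10 kb, exceptions in the pathway list and markers. Members and lists were chosen with earlier results of these data known. The levels within 5 Mb of each gene, the chromosome bins and the motif window of 500 bp were added after seeing the data.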

Additional observations from a re-analysis of the deposited data

How the results depend on the processing

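The same 6 genes had a promoter peak in all lists under −log10 q of at least 5, equal list sizes, a window of 500 bp, basic transcripts and without 3 of the lists in turn; without WT replicate 2, E2f6 joined them (7). Within 2 kb of the genes there were 17 regions, 9 in all lists. Strictly WT-only regions rose from 0 to 1 with −log10 q of at least 5 (4.46% of all regions) and to 2 with equal list sizes (5.81%). Strictly K43M-only regions numbered 3 (7.62%) and 2 (6.3%) under the same settings. Strictly WT-only regions were 3 without WT unnumbered, 2 without WT replicate 2, 1 without K43M replicate 1 and 2 without K43M replicate 2 (11.5, 11.4, 9.19 and 6.26% of all regions). Strictly K43M-only regions then numbered 3, 3, 3 and 4 (10.9, 12.6, 15.6 and 19.5%), since 1 list then stands for a genotype. The limma fit called 23 regions with a prior variance following the mean, 210 on pileups, 24 without WT unnumbered, 30 without WT replicate 2 and 0 without either K43M list, the lone list being assumed to vary like the others. The cause of these changes was not tested. No alternative called a region at the E2f genes.

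Directions turned on pileups at E2f3 (−0.68 and −0.73), E2f2 region 4 (0.013), E2f4 region 1 (0.13) and E2f8 region 3 (0.034), while E2f3 kept its direction when pileups were set over the neighbours within 5 Mb (0.19 and 0.14). Without each list in turn the differences ran from −0.10 to 0.018 at E2f1 region 2, −0.26 to 0.34 at E2f1 region 4, −0.21 to 0.094 at E2f2 region 4, −0.087 to 0.15 at E2f2 region 6, 0.082 to 0.26 at E2f3 region 1, −0.11 to 0.34 at E2f3 region 3, 0.061 to 0.13 at E2f4 region 2, −0.25 to −0.11 at E2f5 region 1, −0.15 to 0.024 at E2f5 region 2, 0.091 to 0.19 at E2f7 region 1, −0.071 to 0.47 at E2f8 region 1, −0.17 to 0.039 at E2f8 region 3 and 0.10 to 0.47 at E2f8 region 4. Within 200 bp of the summit SP1 was in 4 regions and E2F in 4, and within 500 bp E2F and SP1 were in 4 each and NFY in 3. No paired analysis was possible because replicate numbers name lines and pair nothing. Depth limits weak regions: pileups of 6 to 12 are at the edge of what the lists call.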
